A study of Mus musculus with 6 samples.

Results

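The immediate early transcription factors are genes that cells switch on within minutes of a growth signal or a stress, before any new protein is made. The deposited tables list 54532 genes, and each name used here had exactly 1 row. The 10 genes described here were chosen by name, with earlier results of these data known. They are the FOS family members Fos, Fosb and Fosl1, the JUN family members Jun and Junb, the zinc finger factors Egr1 and Klf6, the stress factor Atf3, the growth regulator Myc and the survival gene Ier3, whose product is not a DNA-binding factor. Whole kidney RNA came from 3 WT and 3 Trpm2-/- animals, which the labels give as C57BL/6J aged 6 to 8 weeks, and all 6 had been given cisplatin at 18 mg/kg for 72 h. The methods add that the mice were male, give them a slightly older age range, and describe an allele that has lost exons for part of the transmembrane region and yields no working channel, in mice brought in from another institute while the WT mice were purchased. Untreated kidneys were not analysed here, so each value compares the genotypes after cisplatin and says nothing of the response to cisplatin itself.

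FOS and JUN proteins pair through leucine zippers into AP-1, a factor that binds promoters of genes for proliferation, matrix remodelling and inflammation. EGR1 is switched on by MAP kinase signaling, MYC raises ribosome production and growth, ATF3 is a bZIP factor of the stress response, and KLF6 and IER3 are injury-responsive genes. In injured renal tubules this class of genes is known to rise early, and a part of it can stay raised while the epithelium regenerates. The transcripts of Fos, Jun, Egr1, Ier3 and Myc are short-lived, so a level measured at 72 h is a level at that time and not the sum of what was made before.

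Total counts per library were 15991951 to 17150089 in WT mice and 14053307 to 16150446 in Trpm2-/- mice, and a floor of 3 counts per library stood at 0.175 to 0.213 CPM (counts scaled to a common library size), for counting error only. All 10 genes stood far above this floor, and all 10 passed the filter on low counts that left 15816 genes to test. Trpm2 itself had 5 to 27 counts in WT and 10 to 20 in Trpm2-/- libraries, and as the remaining exons are counted too, this does not check the genotype. The 8 markers of the proximal tubule were present in all 6 libraries and were lower in Trpm2-/- mice, with a summed level of 1997 to 2460 CPM against 4733 to 6365 CPM in WT mice. In whole kidney tissue, fewer cells of a type and less RNA per cell cannot be told apart, and this holds for every difference given here.

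4 members rose in Trpm2-/- kidneys, and none fell. Fosl1, Egr1, Myc and Atf3 had a p below 0.05 after Benjamini-Hochberg adjustment over all genes tested, by the quasi-likelihood method of edgeR. These were 4 of 10 members called higher, where 4.74% of all genes tested were called higher, 7.28% lower and 12% in either direction. At an unadjusted p under 0.05 there were 6 higher and 0 lower, against 14% and 14.3% of all genes tested, and DESeq2 called 5 higher and 0 lower, against 6.92% and 9.13%. The same 4 genes had all 3 Trpm2-/- mice above all 3 WT mice, a pattern shown in that direction by 16.7% of all genes tested, in the other by 16.8% and in either by 33.5%. The median log2 fold change of the 10 genes was 0.47, against 0.02 over all genes tested, and 9 of 10 lay above 0. None of the 10 passed the threshold of the methods, an absolute log2 fold change over 1 with a p under 0.05, which 3.5% of all genes tested passed in the upward direction, 4.1% in the downward and 7.6% in either. In leaving out each mouse in turn, the number of members called higher ranged from 1 without WT replicate 2 to 5 without Trpm2-/- replicate 4, and it was 2 without WT replicate 3. Without WT replicate 1 or Trpm2-/- replicate 4, Fosb passed the threshold of the methods.

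**Figure D1:**
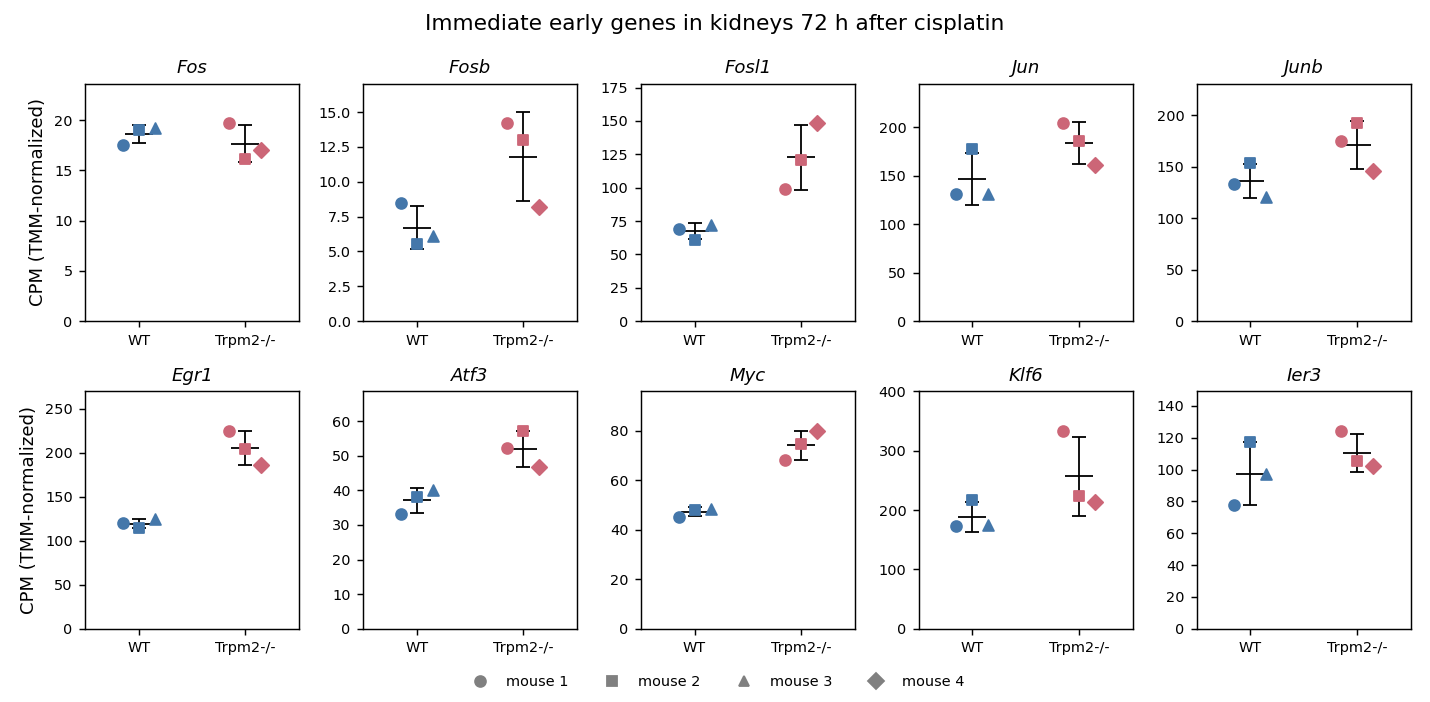
Level of each gene in each kidney, in CPM after TMM normalization on a linear axis from 0, with WT mice in blue, Trpm2-/- mice in red, marker shape giving the mouse number, and black bars giving the mean and SD of 3 mice. Fosl1, Egr1, Atf3 and Myc show no overlap between the genotypes, while the values of the other 6 genes overlap.

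On the FPKM scale, which divides by gene length and so lets genes be ranked, Ier3 was the most abundant member in WT kidneys at 75.4 ± 15.4 FPKM (SD, n = 3). It was followed by Junb at 51.7 ± 6.30, Jun at 40.2 ± 7.42, Klf6 at 37.5 ± 5.04 and Fosl1 at 34.5 ± 3.03 FPKM. The ranges of neighbours in this run of 5 genes overlapped, except that the lowest Ier3 value (60.2 FPKM) was above the highest of Junb (58.3 FPKM). Within each WT mouse Junb was also above Jun, and Jun above Klf6. Egr1 (23.3 ± 0.981 FPKM) stood apart from both sides, Myc and Atf3 (15.2 ± 0.516 and 15.1 ± 1.44 FPKM) were not separable, and Fos (6.92 ± 0.321 FPKM) and Fosb (0.939 ± 0.218 FPKM) were the lowest. In Trpm2-/- kidneys Fosl1 moved from the fifth place to the third, at 63.4 ± 13.0 FPKM, next to Junb at 65.6 ± 8.52 FPKM. Fos and Fosb remained the lowest pair at 6.62 ± 0.691 and 1.66 ± 0.444 FPKM.

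For 7 of the 10 genes a promoter was taken from the RefSeq table for GRCm38.p6, which gives 250 bases before and 50 bases after each start. The promoters of Fosl1, Egr1 and Myc, which all rose in Trpm2-/- kidneys, were not among the 7. Those of Fos, Fosb, Junb and Atf3 are shown because they hold the core TGACG, read on either strand, which lies within the cyclic AMP response element that CREB and ATF factors bind. This core was found in 4 of 7 member promoters and in 20.8% of 32851 promoters of the same length. The full AP-1 site TGACTCA (5.2% of all promoters) and the CArG box of serum response factor (1.63%) were in 0 of the 7. Bases further than 250 before the start were not searched, so sites there would not be found. The E-box CACGTG (7.15%) was in 1, that of Klf6, and TATAAA (13.6%) in 2, those of Fos and Junb. Capitals mark these matches, which are descriptions of the letters and not evidence of binding, and each sequence runs 5′ to 3′ on the strand of its gene.
Fos, chr12:85473640-85473939, plus strand: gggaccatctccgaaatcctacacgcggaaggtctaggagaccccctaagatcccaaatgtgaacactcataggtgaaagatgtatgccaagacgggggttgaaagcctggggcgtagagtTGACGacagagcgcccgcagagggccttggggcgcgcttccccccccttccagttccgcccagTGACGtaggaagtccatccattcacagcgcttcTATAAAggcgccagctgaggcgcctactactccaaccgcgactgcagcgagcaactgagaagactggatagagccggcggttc
Fosb, chr7:19309996-19310295, minus strand: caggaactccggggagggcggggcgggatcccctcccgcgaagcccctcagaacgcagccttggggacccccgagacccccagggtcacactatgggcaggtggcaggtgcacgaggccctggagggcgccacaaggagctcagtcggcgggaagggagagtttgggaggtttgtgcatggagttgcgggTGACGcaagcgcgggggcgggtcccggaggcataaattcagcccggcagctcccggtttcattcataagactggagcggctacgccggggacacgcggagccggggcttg
Junb, chr8:84978699-84978998, minus strand: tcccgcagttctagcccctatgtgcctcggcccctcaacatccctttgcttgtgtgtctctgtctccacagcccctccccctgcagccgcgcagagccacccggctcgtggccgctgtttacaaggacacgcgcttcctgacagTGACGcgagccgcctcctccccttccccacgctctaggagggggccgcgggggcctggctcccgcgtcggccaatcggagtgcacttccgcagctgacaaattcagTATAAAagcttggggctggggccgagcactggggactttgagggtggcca
Atf3, chr1:191183284-191183583, minus strand: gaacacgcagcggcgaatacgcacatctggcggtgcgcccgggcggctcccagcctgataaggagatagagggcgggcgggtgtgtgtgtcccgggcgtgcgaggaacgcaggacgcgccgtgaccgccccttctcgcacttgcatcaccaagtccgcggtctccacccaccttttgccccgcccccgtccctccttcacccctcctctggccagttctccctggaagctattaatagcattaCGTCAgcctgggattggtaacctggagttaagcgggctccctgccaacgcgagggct
In the Fos promoter the cores began 129 and 66 bases before the start and TATAAA 33 bases before it. The TATAAA of Junb began at the start itself and not before it. The Atf3 promoter had the core as CGTCA, on the other strand, 7 bases before the start. This promoter lies inside the annotated span of Atf3, from 191170296 to 191218039, and not at its outer end. Of the 4 genes with the core, Atf3 rose in Trpm2-/- kidneys and Fos, Fosb and Junb did not pass the test.

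Fosl1, which encodes the FOS-related factor FRA-1, rose in Trpm2-/- kidneys. Its level was 69.0, 60.6 and 72.2 CPM in WT mice 1, 2 and 3, and 99.2, 120.4 and 148 CPM in Trpm2-/- mice 1, 2 and 4. The lowest Trpm2-/- mouse was above the highest WT mouse, and the Trpm2-/- mice were spread more widely, with a coefficient of variation of 20.1% against 8.92%. The rise was 0.87 on the log2 scale (1.82-fold, standard error 0.164, adjusted p = 0.0105 in edgeR's test), a change higher than that of 94.1% of all genes tested. Without WT replicate 2 the adjusted p was 0.0625 at a log2 fold change of 0.79. Fosl1 lies on the plus strand of chromosome 19 from 5447703 to 5455945 (GRCm38). By the GENCODE annotation, 57.2% of its exonic bases also lie within exons of Ccdc85b on the opposite strand. The strand setting of the count is not given in the sources used here, so reads of the pair may have been shared. Ccdc85b had 377 to 650 counts per library, against 943 to 2381 for Fosl1, and a log2 fold change of -0.07 (adjusted p = 0.859 in edgeR's test).

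Fos, which encodes the founding member of the FOS family, did not pass the test. It had 17.6, 19.1 and 19.2 CPM in WT mice and 19.7, 16.2 and 17.1 CPM in Trpm2-/- mice. The highest and the lowest value of all 6 were both in Trpm2-/- mice. Its log2 fold change was -0.08 with a 95% interval from -0.42 to 0.27 (adjusted p = 0.792 in edgeR's test), so a rise as large as that of Fosl1 lay outside the interval. Fosb, a close relative of Fos, had 8.45, 5.53 and 6.135 CPM in WT mice and 14.2, 13.0 and 8.16 CPM in Trpm2-/- mice. Trpm2-/- mouse 4 fell among the WT values while the other two lay above them. Its log2 fold change was 0.81 (standard error 0.271), but the adjusted p was 0.0829 in edgeR's test. Fosb passed under 3 of 16 alternatives, among them the fit without Trpm2-/- replicate 4 (log2 fold change 1.03, adjusted p = 0.0312).

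The ratio of Fos to the other members was set within each mouse, so that library size cancels. The log2 ratio of Fos to Fosl1 was -1.85 ± 0.162 in WT and -2.78 ± 0.406 in Trpm2-/- mice (SD, n = 3). Of all 45 pairs of members, 10 had ratios that did not overlap between genotypes, while 32.5% of all pairs of genes tested did not, so the count is not a result about the members. Of these, 7 were Fos against Fosl1, Jun, Junb, Egr1, Atf3, Myc and Klf6, and as they share Fos they are not separate observations. In the two-sided exact permutation test each of the 10 gave p = 0.1, which is as low as this number of mice can reach, and an adjusted p of 0.429 over the 45 pairs. For Fos against Egr1 the log2 ratios had a narrow spread, at -2.68 ± 0.0972 in WT and -3.54 ± 0.107 in Trpm2-/- mice (SD, n = 3).

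**Figure D2:**
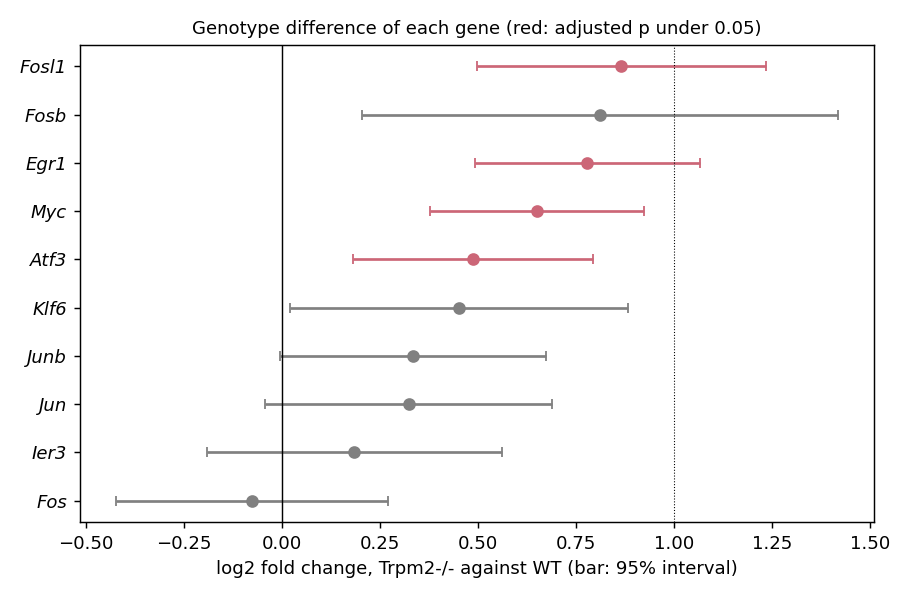
Log2 fold change of each gene, Trpm2-/- against WT (x axis), with the 95% interval from edgeR's fit as a bar, the 4 genes with an adjusted p under 0.05 in red and the others in grey. The solid line marks 0 and the dotted line a log2 fold change of 1, which no point reaches; the interval of Fos, from -0.42 to 0.27, spans 0.

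Jun and Junb, the JUN partners in AP-1, each had a positive estimate without passing the test. Jun had 131, 178 and 131 CPM in WT mice and 204, 186 and 160.5 CPM in Trpm2-/- mice. WT mouse 2 lay above Trpm2-/- mouse 4, and the other 2 WT mice lay below all Trpm2-/- mice. Jun had a log2 fold change of 0.32 with a 95% interval from -0.04 to 0.69 (adjusted p = 0.231 in edgeR's test). Junb had 133, 153 and 121 CPM in WT mice and 175, 192 and 146 CPM in Trpm2-/- mice, with the same 2 mice crossing. Its log2 fold change was 0.33 with an interval from -0.0042 to 0.67 (adjusted p = 0.182 in edgeR's test). Exons of Jun share 7.28% of their bases with Junos, and those of Junb share 7.52% with Prdx2, in both cases on the opposite strand. Junos had 26 to 44 counts per library, and Prdx2, at 3097 to 4315 counts, had a log2 fold change of -0.29 (adjusted p = 0.204 in edgeR's test).

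The make-up of the AP-1 transcript pool was computed from FPKM within each mouse, with Fosl2 and Jund added as the remaining family members. The summed FOS family was 47.1 to 51.55 FPKM in WT mice and 74.6 to 93.1 FPKM in Trpm2-/- mice, and Fosl1 was its largest part in every mouse. Fos made up 13.9% ± 1.16 of this sum in WT and 8.12% ± 1.57 in Trpm2-/- mice, with no overlap, and Fosl1 made up 68.9% ± 2.78 and 76.3% ± 7.19 with overlap (SD, n = 3). The summed JUN family was 176 to 211 FPKM in WT and 175 to 212 FPKM in Trpm2-/- mice, so the genotypes overlapped in total while the shares differed. Jund, the JUN member that is expressed without a stimulus, took 51.6% ± 3.01 in WT and 40.2% ± 2.73 in Trpm2-/- mice. The share of Junb was 27.3% ± 1.84 and 33.7% ± 1.17, and that of Jun 21.1% ± 1.76 and 26.1% ± 2.39 (SD, n = 3). None of the 3 JUN shares overlapped between genotypes. The shares of a mouse add up to its whole, so they are not separate observations. For comparison, 33.5% of all genes tested did not overlap in CPM, nor did 32.5% of log2 ratios of 2 genes. No such background was computed for shares of a family, that of Fos included. By itself no JUN gene passed the test, and Jund had a log2 fold change of -0.33 (adjusted p = 0.148 in edgeR's test). The log2 fold change of Fosl2 was 0.50 (adjusted p = 0.123 in edgeR's test).

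**Figure D3:**
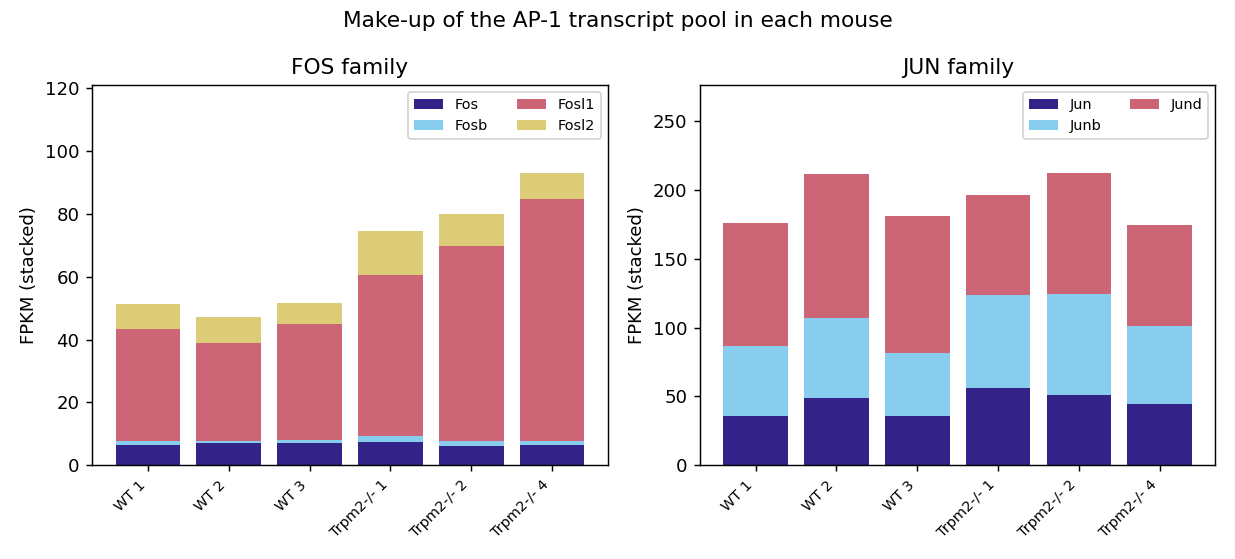
Stacked FPKM of the 4 FOS family genes (left) and the 3 JUN family genes (right) in each of the 6 mice, on linear axes from 0. The FOS sum lies between 74.6 and 93.1 FPKM in Trpm2-/- mice, above the WT mice, mostly as Fosl1, while the JUN sums overlap and Jund takes a smaller part in Trpm2-/- mice.

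Egr1, a zinc finger factor induced through MAP kinase and serum response factor, was the member with the smallest p. It had 120.1, 114 and 124.5 CPM in WT mice and 225, 204.5 and 186.5 CPM in Trpm2-/- mice. The 3 WT mice lay within a coefficient of variation of 4.38%, and the lowest Trpm2-/- mouse was far above them. It rose by 0.78 on the log2 scale (1.72-fold, standard error 0.128, adjusted p = 0.00591 in edgeR's test). Egr1 was past the threshold in all 16 alternatives, with adjusted p up to 0.0449, and no other member was.

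Myc, on the plus strand of chromosome 15 from 61985391 to 61990374, had the narrowest spread relative to its mean in WT kidneys (3.64%) of the 10 genes. It had 45.3, 47.9 and 48.6 CPM in WT mice and 68.25, 74.6 and 79.95 CPM in Trpm2-/- mice. The gap between the groups was wider than the range within either. It rose by 0.65 on the log2 scale (1.57-fold, standard error 0.122, adjusted p = 0.00981 in edgeR's test), and the adjusted p was 0.0585 without WT replicate 2 and 0.0581 without WT replicate 3.

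Atf3, a bZIP factor raised by many stresses, passed the threshold narrowly. It had 33.1, 38.1 and 40.1 CPM in WT mice and 52.2, 57.15 and 46.6 CPM in Trpm2-/- mice. The genotypes did not overlap, with Trpm2-/- mouse 4 closest to the WT mice. It rose by 0.49 on the log2 scale (1.40-fold, standard error 0.137, adjusted p = 0.0477 in edgeR's test). The adjusted p exceeded 0.05 whichever WT mouse was left out (0.146, 0.153 and 0.132 without replicates 1, 2 and 3) and without Trpm2-/- replicate 1 or 2 (0.0853 and 0.0924), and it was 0.0511 in limma-voom.

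Klf6 and Ier3, both known from injured tissue, did not pass. Klf6, a Krüppel-like zinc finger factor, had 173, 217 and 174 CPM in WT mice and 333.5, 223 and 214.5 CPM in Trpm2-/- mice. Trpm2-/- mouse 1 stood apart from the other 5 mice, among which the genotypes overlapped. The estimate for Klf6 was 0.45 on the log2 scale (adjusted p = 0.159 in edgeR's test, standard error 0.192), and it was 0.22 without Trpm2-/- replicate 1. Ier3, which encodes a regulator of cell survival, had 77.6, 117 and 97.4 CPM in WT mice and 124, 106 and 102 CPM in Trpm2-/- mice. WT mouse 2 was the second highest of all 6. Its log2 fold change was 0.18 with a 95% interval from -0.19 to 0.56 (adjusted p = 0.517 in edgeR's test).

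Mice of the same genotype did not rank alike for all members. Trpm2-/- mouse 1 had the highest level of its genotype for 6 of the 10 genes (Fos, Fosb, Jun, Egr1, Klf6 and Ier3). Trpm2-/- mouse 4 was highest for Fosl1 and Myc and lowest for Fosb, Jun, Junb, Egr1, Atf3, Klf6 and Ier3. WT mouse 2 was highest of its genotype for Jun, Junb, Klf6 and Ier3. The libraries also differed in other marker lists. Trpm2-/- mouse 4 had the highest summed endothelial markers (197 CPM, against 53.2 and 55.0 CPM in the other Trpm2-/- mice and 81.3 to 118 CPM in WT mice) and fibroblast markers (166 CPM against 47.3 and 60.1 CPM, and 63.0 to 96.2 CPM in WT mice). The summed markers of tubular injury were 27650 CPM in Trpm2-/- mouse 1, 19540 and 22060 CPM in the others of its genotype and 17570 to 19530 CPM in WT mice. Most of that sum was Spp1, which encodes osteopontin (18490 CPM in Trpm2-/- mouse 1). Spp1, Sox9, Clu and Krt8 were highest in Trpm2-/- mouse 1, and Havcr1, Lcn2, Krt18 and Krt20 in Trpm2-/- mouse 2. The summed macrophage markers were 242.5 CPM in Trpm2-/- mouse 1, 159 and 164 CPM in the others and 151 to 184 CPM in WT mice. Cd14 (103 CPM), Cd68 (70.6 CPM) and Lyz2 (43.1 CPM) made up much of that sum. Cd68 was at 54.4 to 70.6 CPM in Trpm2-/- mice and 55.6 to 71.7 CPM in WT mice, so it overlapped. Csf1r, the receptor that macrophages depend on, was at 11.1 CPM in Trpm2-/- mouse 1, the lowest of the 6 mice. Genes of the mitochondrial genome took 7.91% to 11.04% of counts in Trpm2-/- and 4.43% to 4.72% in WT mice, with the highest share in Trpm2-/- mouse 4. The part that these differences have in the levels of Fosl1, Myc, Klf6 and the other members was not tested.

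**Figure D4:**
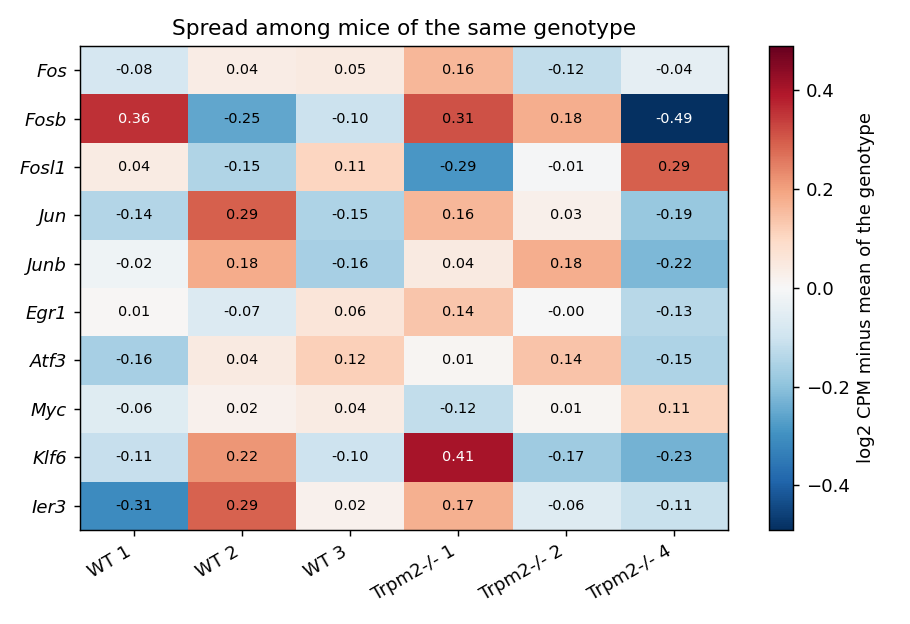
Each cell gives the log2 CPM of a gene in a mouse minus the mean of its genotype, red above and blue below that mean. Trpm2-/- mouse 1 is above its genotype mean for Klf6 (0.41) and below it for Fosl1 (-0.29), and Trpm2-/- mouse 4 is above for Fosl1 (0.29) and below for Fosb (-0.49).

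Lists of related genes were described by their counts beside the background of all genes tested, without a test of the list. That background was 4.74% of all genes tested called higher, 7.28% lower and 12% in either direction. Among other AP-1 and small bZIP factors, 0 of 7 tested genes were called in either direction by edgeR at an adjusted p under 0.05 or by DESeq2, 3 had an unadjusted p under 0.05, and these 3 were Fosl2, Maff (log2 fold change 0.45) and Jund. Of the EGR family and its corepressors, Nab1, which restrains EGR1, rose by 0.56 on the log2 scale (44.0 ± 2.66 to 65.1 ± 9.25 CPM, SD, n = 3, adjusted p = 0.0320 in edgeR's test). Its adjusted p was 0.0787, 0.149 and 0.115 without WT replicates 1, 2 and 3, and 0.0732 and 0.0633 without Trpm2-/- replicates 1 and 4. Nab2 and Egr2 had log2 fold changes of -0.14 and -0.030, with adjusted p of 0.77 and 0.965 in edgeR's test, and both changed sign under some alternatives. Egr3 and Egr4 were below the filter.

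In a list of 13 genes set by hand as other immediate early transcription factors, 1 rose and 1 fell. Of all genes tested, 12% were called in either direction. Klf10, a Krüppel-like factor induced by TGF-beta, rose from 38.7 ± 4.90 to 79.4 ± 5.39 CPM (n = 3, SD), with a log2 fold change of 1.04 (adjusted p = 0.00298 in edgeR's test). Klf15, a Krüppel-like factor under glucocorticoid control with metabolic targets, fell from 82.8 ± 8.54 to 31.7 ± 4.74 CPM (n = 3, SD), with a log2 fold change of -1.39 (adjusted p = 0.00150 in edgeR's test). Ier5 had a log2 fold change of 0.50 (adjusted p = 0.0647 in edgeR's test). Klf10 and Klf15 stayed past the threshold whichever of the 6 mice was left out.

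Immediate early genes that are not transcription factors had 6 of 22 called higher and 0 lower, where 4.74% of all genes tested were called higher. Ctgf, a matrix-associated protein and target of YAP and TGF-beta signaling, went from 136 ± 33.1 to 358 ± 24.8 CPM (n = 3, SD), with a log2 fold change of 1.39 (adjusted p = 0.00283 in edgeR's test). The ERK phosphatases Dusp5 and Dusp6 rose by 0.87 and 0.70 on the log2 scale (adjusted p = 0.00394 and 0.0134 in edgeR's test). Without WT replicate 2 or 3 the adjusted p of Dusp6 was 0.0786 or 0.0713. Zfp36l1, Sik1 and Phlda1 were the other 3 called. Each of these lost the call whichever WT mouse was left out (adjusted p from 0.0534 to 0.153), and so did Sik1 without Trpm2-/- replicate 1 or 2 (0.0590 and 0.0585) and Phlda1 without Trpm2-/- replicate 2 or 4 (0.0648 and 0.0837). Dusp1, a phosphatase that is induced with Fos, had 89.9 ± 22.02 CPM in WT and 104 ± 25.1 CPM in Trpm2-/- mice (SD, n = 3) and did not pass.

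**Figure D5:**
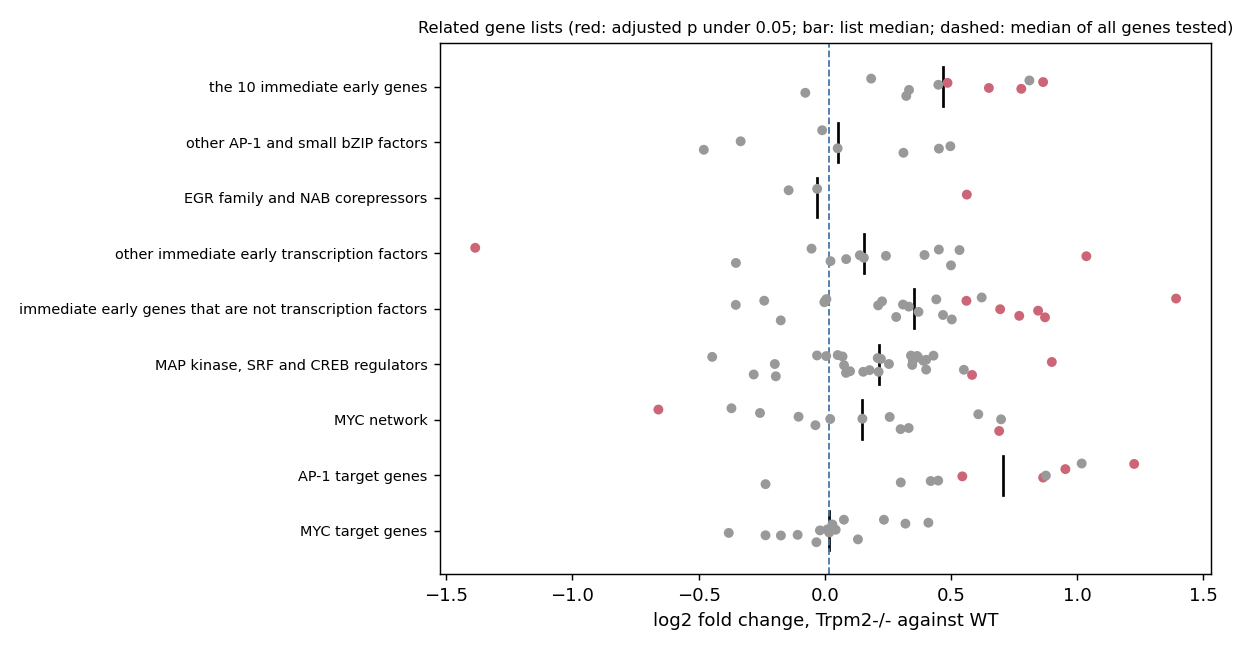
Log2 fold change, Trpm2-/- against WT (x axis), of each tested gene in the 10 immediate early genes and in 8 related lists (rows), with genes at an adjusted p under 0.05 in red, black bars for list medians and a dashed line for the median of all genes tested (0.02). The AP-1 target list has the highest median (0.71), and the MYC target list sits at the background (0.02).

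Upstream, 2 of 29 MAP kinase, serum response factor and CREB regulators rose and 0 fell, a share near the 4.74% of all genes tested called higher. At an unadjusted p under 0.05, 9 were higher and 1 lower, against 14% and 14.3% of all genes tested. In CPM, 9 were higher without overlap and 1 lower, against 16.7% and 16.8%. Of the 29, 24 lay above 0, and the list median was 0.21, against 0.02 over all genes tested. Elk3, an ETS factor that works with serum response factor, rose from 12.6 ± 0.633 to 23.6 ± 1.93 CPM (n = 3, SD), with a log2 fold change of 0.90 (adjusted p = 0.00684 in edgeR's test). Mkl1, a coactivator of the same factor, rose by 0.58 on the log2 scale (adjusted p = 0.0462 in edgeR's test), and this was above 0.05 without WT replicate 2 or 3 (0.183 and 0.194) and without Trpm2-/- replicate 1 or 2 (0.0833 and 0.0965). Rps6ka3, an ERK-activated kinase, had 0.55 (adjusted p = 0.0744 in edgeR's test). These are transcript levels, and the activity of the kinases was not measured by sequencing.

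Downstream, 4 of 10 tested AP-1 target genes rose and 0 fell, where 4.74% of all genes tested were called higher, and 9 of 10 had a log2 fold change above 0. Vim, an intermediate filament of mesenchymal and dedifferentiated epithelial cells, went from 69.0 ± 11.7 to 162 ± 17.2 CPM (n = 3, SD), with a log2 fold change of 1.23 (adjusted p = 0.00261 in edgeR's test). Timp1, a metalloproteinase inhibitor, rose by 0.87, and Plaur, the urokinase receptor, by 0.55 on the log2 scale (adjusted p = 0.00683 and 0.0279 in edgeR's test). The adjusted p of Plaur was above 0.05 without WT replicate 2 or 3 (0.136 and 0.158) and without Trpm2-/- replicate 2 (0.0523). Cd44, a hyaluronan receptor, was the fourth, with 27.8 ± 9.11 and 53.8 ± 12.4 CPM (SD, n = 3), and its adjusted p was above 0.05 without WT replicate 2 or 3 (0.132 and 0.14) and without Trpm2-/- replicate 1 or 4 (0.0820 and 0.0832). Like the 10 members, this list was chosen by hand with earlier results of these data known, and its genes have other regulators too. Of the 15 MYC target genes, most of them for ribosome and nucleotide synthesis, 0 were called in either direction by edgeR at an adjusted p under 0.05, 1 by DESeq2, and 3 had an unadjusted p under 0.05. Ldha, the lactate dehydrogenase subunit, had a log2 fold change of -0.38 (adjusted p = 0.108 in edgeR's test). Cad had 0.41 and Gnl3 0.32, and the list median was 0.02, equal to that of all genes tested. In the MYC network 1 gene rose and 1 fell of 13, a share near the 12% of all genes tested called in either direction. Mga, a repressor that pairs with MAX, rose by 0.69, and Mlxipl, the glucose-responsive factor ChREBP, had -0.66 (adjusted p = 0.0401 and 0.0433 in edgeR's test). Neither stayed below 0.05 without WT replicate 2 or 3 (0.155 and 0.125 for Mga, 0.146 and 0.157 for Mlxipl), nor did Mga without Trpm2-/- replicate 1 or 4 (0.105 and 0.0911) or Mlxipl without WT replicate 1 or Trpm2-/- replicate 1 (0.0649 and 0.0606).

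Markers of other kidney cells gave the setting of these levels. All 8 proximal tubule markers fell, among them Slc34a1, the sodium-phosphate carrier, by 2.73, Cubn, the endocytic receptor cubilin, by 1.39 and Slc5a2, the glucose carrier SGLT2, by 1.24 on the log2 scale. Of the 8 tubular injury markers, Sox9 rose by 1.16 and Krt20 by 0.79 on the log2 scale (adjusted p = 0.0115 and 0.0189 in edgeR's test), Havcr1, which encodes KIM-1, had 0.51 (adjusted p = 0.0747 in edgeR's test), and none of the 8 had a negative estimate. Sox9 was at an adjusted p of 0.0578 without WT replicate 3, and Krt20 at 0.0622, 0.115 and 0.0518 without WT replicates 2 and 3 and Trpm2-/- replicate 1. Of 7 macrophage markers, C1qa had -2.03 (adjusted p = 0.0401 in edgeR's test) with overlapping genotypes, and was above 0.05 when any mouse other than WT replicate 1 was left out (0.0668 to 0.151). Cd14 had 0.82 and Lyz2 1.35, neither of them past the threshold. Neutrophil markers summed to 3.02 to 13.2 CPM in WT and 6.21 to 12.5 CPM in Trpm2-/- mice, and those of T and B cells to 0.964 to 2.71 and 1.49 to 2.39 CPM. Among the T and B cell markers, Ms4a1 had 0, 0 and 1 counts in WT mice 1, 2 and 3, and 0 in every Trpm2-/- library. Urothelial markers were 7.90 to 56.4 CPM in WT and 6.55 to 8.74 CPM in Trpm2-/- mice, and WT mouse 1 held the highest value. Of 3 tested, 1 was called lower, where 7.28% of all genes tested were. This was Upk3a (log2 fold change -5.43, adjusted p = 0.0175 in edgeR's test), at 13.5, 0.771 and 3.31 CPM in WT mice and 0 to 0.273 CPM in Trpm2-/- mice. Krt5 overlapped, at 3.68 to 8.27 CPM in WT and 5.29 to 7.10 CPM in Trpm2-/- mice. The part that these lists have in the differences of the 4 members that rose was not tested.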

How the data were processed

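The authors deposited a table of counts, whole numbers of reads per gene without normalization, and a table of FPKM, in which the authors divided these counts by gene length and a library total. The submitters' processing notes name HISAT2, StringTie and mm9, but 98.3% of the gene identifiers shared with the GENCODE mouse annotation (release M21) have the positions of GRCm38, so positions are given in that build. The strand setting is not given in the sources used here. Counts were normalized by TMM, filtered with filterByExpr and tested with edgeR 4.0.16 in R 4.3.3 (two-sided quasi-likelihood test, genotype only, Benjamini-Hochberg adjustment over 15816 genes, common dispersion 0.0445). The standard error of a log2 fold change was its size divided by the root of the F statistic. Alternatives used DESeq2 1.42.0, limma 3.58.1 (limma-voom, and log2(FPKM + 1) or log2(FPKM + 0.1)), other normalizations and filters, the mitochondrial genome left out, a replicate block and each mouse left out. The background for ratios of member pairs used log2 CPM with a prior count of 2. The tests were run on simulated counts before use. The 10 genes and all lists were chosen by hand with earlier results of these data known. Named were the 10 genes, up to 3 genes of each list with the smallest p, and 5 genes alike to Fos, Atf3 and Myc. Cd44, Zfp36l1, Sik1, Phlda1, Dusp1, Spp1, Lcn2, Krt18, Cd68, Csf1r and the genes that overlap the members were named after their values were seen. No pair of replicates agreed within sampling noise, as a library deposited in duplicate would (chi-square 13.5 to 36.7 times its degrees of freedom). This check finds copies only. The edgeR p-values set each genotype difference against the spread between these mice, in an estimate that borrows from all genes tested. The value of 1 lymphocyte marker is not reported here.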

Additional observations from a re-analysis of the deposited data

How the results depend on the processing

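The direction of all 10 members was kept in all 16 alternatives. The number of members called higher was 4, and 2 with a replicate block; over the fits without each mouse it ranged from 1 to 5. No member was called lower in any of them. At the threshold of the methods it was 0, and 0 to 1 without each mouse, Fosb being the gene that passed. Related genes called higher were 15 of 112 tested, 8 with the replicate block and 6 to 17 without each mouse. Lower were 2, against 1 with upper quartile normalization, 4 with DESeq2, 1 in limma on log2(FPKM + 1), 1 on log2(FPKM + 0.1) and 1 to 2 without each mouse. For comparison, edgeR called 4.74% of all genes tested higher and 7.28% lower, and DESeq2 called 9.13% lower. Egr2 turned positive with upper quartile normalization (0.0077), the replicate block (0.0384), without WT replicate 3 (0.11) and without Trpm2-/- replicate 2 (0.0988), with a range of -0.16 to 0.11 without each mouse. Nab2 turned positive without Trpm2-/- replicate 1 (0.0884), with a range of -0.49 to 0.0884. The causes were not tested. Replicate numbers 1 and 2 occur in both genotypes, but the deviations of same-numbered mice correlated at 0.064 and -0.012 across genes, so the numbers were not taken as pairs. In the fit with the block, WT mouse 3 and Trpm2-/- mouse 4 each had a number without a partner. The genotype difference there rested on mice 1 and 2 of each genotype. With the block, edgeR called 1002 genes (6.34% of those tested) in place of 1902 (12%). It called 2954 of the 28884 genes tested with no filter (10.2%), 697 without WT replicate 2 (4.24%) and 630 without WT replicate 3 (3.86%). Myc and Atf3 lost the call under the block (adjusted p = 0.0750 and 0.0764). With 3 mice per genotype no exact permutation test could give a p below 0.1, and groups of this size were not tested for outlying mice.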

Other observations

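The genes whose level followed Fos, Atf3 and Myc most closely over the 6 mice were sought among 10806 other genes with a mean of at least 5 CPM, leaving out unnamed gene models, by Pearson's r of log2 CPM. With 6 points that share 6 libraries and 2 genotypes, values near 1 are common among so many genes, and they are given as a description. For Fos these were Acsl3, Rammet, Maf, Crem and Dcun1d1 (r from 0.973 to 0.987), and none of the 5 passed an adjusted p under 0.05 between genotypes. Crem encodes a factor that binds cyclic AMP response elements. For Atf3 they were Lsm11, Sik1, Ttl, Pdlim3 and Praf2 (r from 0.971 to 0.986), of which Sik1, a kinase induced through CREB, and Praf2 were called higher in Trpm2-/- mice (log2 fold changes 0.56 and 0.59). For Myc they were Cntrl, mt-Rnr2, Dcaf4, Khdc4 and Snapin (r from 0.991 to 0.995). Among these mt-Rnr2, the large ribosomal RNA of mitochondria, had 1390 CPM in WT and 3423 CPM in Trpm2-/- mice (adjusted p = 0.00340 in edgeR's test), and Dcaf4 and Khdc4 were called higher too.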
